A study of Mus musculus with 9 samples.

Results

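The 9 genes followed here carry the dopamine, adenosine, cannabinoid and opioid signalling of striatal medium spiny neurons: the receptors Drd1, Drd2, Adora2a and Cnr1, the opioid precursor Penk, and the intracellular signalling genes Ppp1r1b, Pde10a, Rgs9 and Arpp21. They were taken by their symbols from the RNA-seq count table, in which all 9 of them are listed among 36410 genes. The samples are 3 immortalized striatal cell lines made from mouse embryos, with 3 poly(A) RNA libraries from each and strain C57/BL6 given for all of them. The paper describes the lines as knock-in cell models, with the control line from wild-type embryos. The control line (STHdhQ7/Q7) has 7 glutamine codons on both alleles, HD-het cells (STHdhQ7/Q111) have an allele with 7 and an allele with 111, and both alleles of HD-homo cells (STHdhQ111/Q111) have 111. No treatment is given for any library. Each genotype is 1 line, and effects of genotype and of line cannot be told apart. The labels do not say whether the 3 libraries of a line came from separate cultures, and p-values then measure only the spread between these libraries.

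Medium spiny neurons are the GABAergic projection neurons of the striatum. Dopamine raises cAMP in them through the D1 receptor and lowers it through the D2 receptor, and an adenosine receptor, Adora2a, opposes D2 in the neurons that also make enkephalin. The cAMP signal runs through protein kinase A to DARPP-32 and is ended by phosphodiesterases such as PDE10A. Loss of these transcripts and proteins from the striatum is a known early feature of Huntington disease in patients and in mouse models. The comparison asks how much of this set the cultured lines express, and how its levels differ between the genotypes.

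Totals ran from 29507665 to 41197931 counted reads a library. A count of 3 was taken as the floor of detection, which corresponds to 0.0710 to 0.101 in normalized counts per megaread (CPM), depending on the library, and covers counting error only. Replicate libraries varied more than counting allows, by 2.19 to 39.6 times in variance. The label of the cells as striatal was set against marker genes. Of 9 markers of striatal projection neuron identity, the vesicular GABA transporter Slc32a1 and the transcription factor Isl1 had 0 reads in every library, and the GABA-synthesizing enzyme Gad1 had 3 counts or fewer. The list summed to 162 to 170 CPM in control, 226 to 246 in HD-het and 207 to 247 in HD-homo libraries. Foxp1, Meis2 and Ebf1 carried most of that sum, with means of 93.8, 49.2 and 23.6 CPM in control cells. Bcl11b, Foxp2 and the GABA-synthesizing enzyme Gad2 had 0.167, 0.0933 and 0.145 CPM there. Of 12 neuronal markers, Rbfox3, Snap25, Syt1, Nefl and Dcx were at or under the floor in all libraries. In contrast, 10 fibroblast and mural cell markers summed to between 4852 and 6151 CPM in control cells, between 14676 and 16552 in HD-het cells and between 6564 and 7141 in HD-homo cells. The label was therefore borne out by only part of the markers of medium spiny neurons. The remaining marker lists are summed in ranges over libraries, for control, then HD-het, then HD-homo cells. They were 143 to 174, 109 to 117 and 92.2 to 116 CPM for the 12 neuronal markers, 327 to 375, 213 to 232 and 401 to 461 CPM for 8 astrocyte markers, and at most 2.89 CPM for 7 oligodendrocyte and 1.55 CPM for 5 endothelial markers. Of the neuronal sums, Map2 had means of 62.9, 60.4 and 59.7 CPM in that order and Tubb3 of 42.4, 50.8 and 37.8. Stmn2 fell from 53.7 CPM in control to 2.71 in HD-het and 2.75 in HD-homo cells. Nefm fell from 3.12 to 0.0201 and 0.125 CPM. Of the astrocyte sums, Gja1 alone had means of 356, 219 and 415 CPM. Aqp4, S100b and Gjb6 were at or under the floor in all libraries. In bulk RNA, fewer cells expressing a gene and less of its RNA per cell cannot be told apart.

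The set made up a very small share of the RNA, as shown in the plot of levels per transcript length. Together the 9 genes received 118 to 175 reads in a control library, 346 to 358 in an HD-het library and 154 to 194 in an HD-homo library. This was at most 0.00105% of the reads of any library. Per kilobase of transcript, Penk had the highest level in control cells, at 0.885 ± 0.156 normalized reads per kilobase per megaread (RPKM; SD, n = 3), and in HD-homo cells, at 1.67 ± 0.654. In HD-het cells Cnr1 was first at 0.718 ± 0.135 RPKM, and Pde10a followed at 0.647 ± 0.0884, which is within the SD of both. The tested genes of control cells had a median of 8.43 RPKM, so that every gene of the set lay far below it. Penk, the highest, exceeded 20.1% of the tested genes with a known length in control cells, and Pde10a exceeded 12.2%. In control cells Pde10a, Adora2a, Rgs9 and Cnr1 followed Penk in that order, and among these 4 no neighbours in the order differed by more than their SDs. Ppp1r1b and Arpp21 came next, and Drd1 and Drd2 had 0 reads. In HD-homo cells Pde10a, Ppp1r1b, Rgs9 and Adora2a followed Penk, again without a gap beyond the SDs between neighbours, and Arpp21 and Cnr1 were last among the genes with reads. These levels depend on the length used. With the union of all exons of a gene, Cnr1 and Pde10a had 0.647 and 0.391 RPKM in HD-het cells and no longer lay close together, Rgs9 (0.0633) lay below Cnr1 (0.0664) in control cells, and Rgs9 (0.0608) below Adora2a (0.0761) in HD-homo cells, while Penk kept the highest level in both of these lines.

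**Figure D1:**
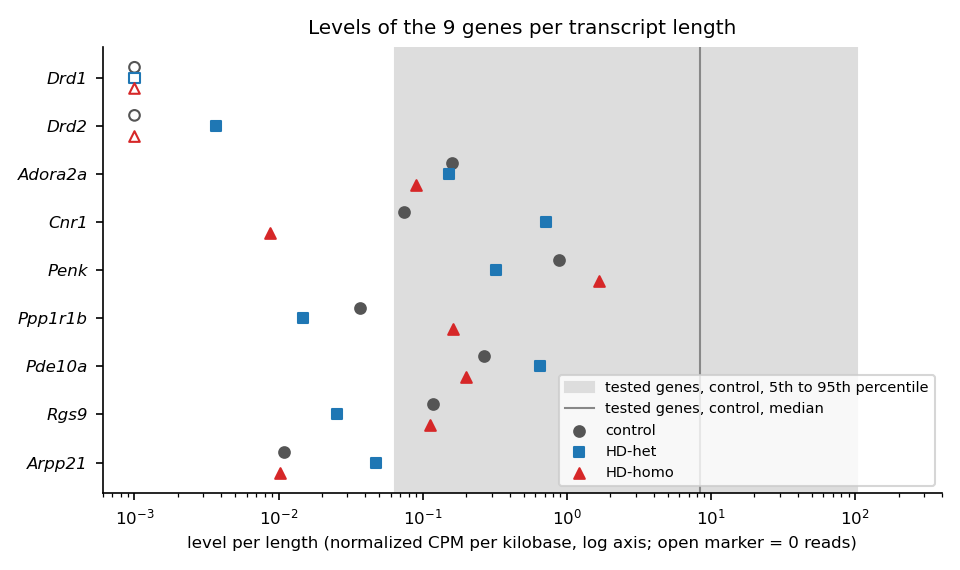
Level per transcript length of the 9 genes (RPKM, log axis) by line; the grey band spans the 5th to 95th percentile of the tested genes of control cells and the line is their median. Open markers at the left edge stand for 0 reads, and the set lies below the median of 8.43 RPKM in all lines.

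The starts of Cnr1 and Rgs9 are shown because these genes had the widest differences between the lines among the tested receptors and the tested intracellular genes. The sequences are the 250 bases before the first start of each gene in RefSeq, on GRCm38.p6. The Cnr1 window is chr4:33924014-33924263 on the plus strand and the Rgs9 window is chr11:109298182-109298431 on the minus strand. Capitals mark the GC box (GGGCGG) and the TATA box (TATAAA), on either strand.
Cnr1: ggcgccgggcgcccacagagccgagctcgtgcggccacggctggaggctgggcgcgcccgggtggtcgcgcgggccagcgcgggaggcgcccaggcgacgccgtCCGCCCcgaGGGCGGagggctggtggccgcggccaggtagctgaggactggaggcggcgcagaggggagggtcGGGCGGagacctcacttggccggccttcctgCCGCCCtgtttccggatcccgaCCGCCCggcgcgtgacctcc
Rgs9: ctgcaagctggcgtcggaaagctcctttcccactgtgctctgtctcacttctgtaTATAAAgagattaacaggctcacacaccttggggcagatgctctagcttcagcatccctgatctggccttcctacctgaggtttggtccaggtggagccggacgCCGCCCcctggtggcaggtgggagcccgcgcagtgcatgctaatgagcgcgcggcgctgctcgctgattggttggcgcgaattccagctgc
The Cnr1 window holds 5 GC boxes and no TATA box, and 79.2% of its bases are G or C. The Rgs9 window holds 1 of each motif, with 59.6% G or C. Of all 32851 such windows, 32.7% hold a GC box and 12.4% a TATA box, and the median share of G or C is 52.4%. The core of the cAMP response element, TGACG, is in neither window and in 17.8% of all of them. These matches describe the letters of the windows only. Windows were found for 6 of the 9 genes, which leaves out Penk, Ppp1r1b and Adora2a.

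The dopamine receptors were not detectable at this depth. Drd1, the receptor that raises cAMP in neurons of the direct pathway, lies at chr13:54051183-54055705 on the minus strand of GRCm38 and had 0 reads in all 9 libraries. A count of 0 allows up to the floor of between 0.0710 and 0.101 CPM. Drd2, the receptor that lowers cAMP in neurons of the indirect pathway, lies at chr9:49340627-49408177 on the plus strand. It had 1 read in HD-het replicate 1 and 0 in the other 8 libraries. Neither gene passed the low-count filter, and no fold change was computed for Drd1. Without the filter, edgeR gave Drd2 a log2 fold change of 1.87 in HD-het against control cells (SE 1.85, adjusted p = 0.438). That value rests on 1 read.

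Adora2a, the adenosine receptor that raises cAMP in enkephalin neurons, was present at a low level in all lines and did not pass the test in any comparison. The gene spans chr10:75316877-75334784 on the plus strand, with 3 exons in its 2596-nucleotide transcript. Its reads numbered 15, 17 and 8 (control), 9, 10 and 21 (HD-het) and 4, 13 and 9 (HD-homo). The libraries of the 3 lines overlapped. Mean CPM of Adora2a was 0.414 ± 0.126 (SD, n = 3) for control, 0.396 ± 0.203 for HD-het and 0.233 ± 0.0976 for HD-homo cells. Against control cells the log2 fold change (log2FC) was -0.08 for HD-het cells, with a 95% interval from -0.99 to 0.83 (adjusted p = 0.870, edgeR's quasi-likelihood test with adjustment over all genes tested). In HD-homo cells it was -0.80, with an interval from -1.79 to 0.18 (adjusted p = 0.146). Neither difference could be detected at the depth of these libraries.

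Cnr1, the cannabinoid receptor CB1 through which endocannabinoids lower transmitter release, changed more than the other 4 tested genes of the set, and in opposite directions in the HD lines. It lies at chr4:33924593-33948831 on the plus strand, with a 5807-nucleotide transcript of 2 exons. Reads of Cnr1 numbered 15, 15 and 11 (control), 141, 115 and 168 (HD-het) and 2, 0 and 3 (HD-homo). The lines did not overlap, with every HD-het library above and every HD-homo library below the control libraries. Mean CPM was 0.428 ± 0.0498 for control, 4.17 ± 0.781 for HD-het and 0.0503 ± 0.0457 for HD-homo cells. In HD-het cells Cnr1 rose by a log2FC of 3.27 (SE 0.278, adjusted p = 1.8e-06). In HD-homo cells it fell to the floor of detection, and the summed counts were 9.32-fold lower than in control cells (95% counting interval 3.69 to 30.2). The fitted log2FC was -3.11 (SE 0.558, adjusted p = 6.0e-04) and lay between -3.83 and -2.21 over the alternatives. Between the HD lines, the summed counts of Cnr1 were 90.4-fold lower in HD-homo cells (interval 38.4 to 279.9), a log2FC of -6.38 (SE 0.393, adjusted p = 7.5e-08) that lay between -7.10 and -5.33 over the alternatives. Single libraries moved this size: without HD-homo replicate 2 the log2FC of Cnr1 was -2.45 against control and -5.71 against HD-het cells, and without HD-homo replicate 3 it was -3.83 and -7.10.

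Penk, the precursor of the enkephalins, which act on opioid receptors, had the opposite pattern. The gene spans chr4:4133531-4138819 on the minus strand, with 2 exons in the 1449-nucleotide transcript used. Its reads numbered 33, 46 and 43 (control), 22, 18 and 8 (HD-het) and 71, 68 and 116 (HD-homo). The lines did not overlap in CPM, with HD-het libraries lowest and HD-homo libraries highest. Mean CPM of Penk was 1.28 ± 0.226 for control, 0.470 ± 0.202 for HD-het and 2.42 ± 0.948 for HD-homo cells. The log2FC of Penk in HD-het cells was -1.44 (SE 0.386, adjusted p = 0.00672). In HD-homo cells it was 0.90 (SE 0.314, adjusted p = 0.0287), and from HD-het to HD-homo cells 2.34 (SE 0.359, adjusted p = 0.000122). The call in HD-homo cells rests on single libraries: the log2FC was 0.76 (adjusted p = 0.102) without control replicate 1, 0.95 (adjusted p = 0.0588) without control replicate 2 and 0.55 (adjusted p = 0.109) without HD-homo replicate 3. The exons of A830012C17Rik on the other strand cover 14.3% of the Penk exon bases, and that gene had 0 reads in all libraries.

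Ppp1r1b, which encodes DARPP-32, the inhibitor of protein phosphatase 1 that protein kinase A activates, was above the floor only in HD-homo cells. It lies at chr11:98348404-98357796 on the plus strand, with 7 exons in the 2001-nucleotide transcript used. Reads of Ppp1r1b numbered 2, 3 and 2 in the control libraries, 1 in each HD-het library, and 11, 17 and 8 in the HD-homo libraries. The HD-homo libraries were above all others, and the libraries of control and HD-het cells were all at or under 3 counts. Mean CPM was 0.0730 ± 0.0143 for control, 0.0295 ± 0.00120 for HD-het and 0.326 ± 0.0825 for HD-homo cells. The summed counts in HD-homo cells were 4.52 times those of control cells (95% counting interval 1.99 to 12) and 11.3 times those of HD-het cells (3.56 to 57.1). The gene did not pass the low-count filter, and the two-sided exact permutation test gave p = 0.10 for both comparisons, the smallest that 3 libraries against 3 allow. Without that filter, edgeR gave a log2FC of 2.12 against control cells (adjusted p = 0.00190). The exons of 1700003D09Rik, which had 0 reads, cover 15.7% of the Ppp1r1b exon bases on the other strand.

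Pde10a, the phosphodiesterase that breaks down cAMP and cGMP in medium spiny neurons, rose in HD-het cells. The gene spans chr17:8525372-8986648 on the plus strand, with 22 exons in a 7769-nucleotide transcript. Its reads numbered 74, 80 and 45 (control), 174, 189 and 147 (HD-het) and 55, 73 and 42 (HD-homo). Each HD-het library was above all control and HD-homo libraries, while control and HD-homo libraries overlapped. Mean CPM of Pde10a was 2.07 ± 0.474 for control, 5.02 ± 0.687 for HD-het and 1.56 ± 0.263 for HD-homo cells. Its log2FC was 1.27 in HD-het cells (SE 0.193, adjusted p = 0.000144) and -0.41 in HD-homo cells (95% interval -0.88 to 0.06, adjusted p = 0.117). Between the HD lines it was -1.68 (SE 0.197, adjusted p = 1.4e-05). Without control replicate 3, the log2FC of Pde10a in HD-homo cells was -0.58 (adjusted p = 0.0313).

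Rgs9, the regulator of G protein signalling that shortens signalling of dopamine and opioid receptors in the striatum, fell in HD-het cells. It lies at chr11:109225355-109298129 on the minus strand, with 10 exons in the 3464-nucleotide transcript used. Reads of Rgs9 numbered 19, 13 and 7 (control), 4, 5 and 0 (HD-het) and 8, 20 and 15 (HD-homo). All HD-het libraries were below all others, while control and HD-homo libraries overlapped. Mean CPM was 0.405 ± 0.178 for control, 0.0884 ± 0.0791 for HD-het and 0.389 ± 0.125 for HD-homo cells. The log2FC of Rgs9 was -2.16 in HD-het cells (SE 0.627, adjusted p = 0.0103), and -0.05 in HD-homo cells (95% interval -1.07 to 0.97, adjusted p = 0.937). Between the HD lines it was 2.11 (SE 0.619, adjusted p = 0.00964).

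Arpp21, whose products include a small phosphoprotein regulated by cAMP and calcium signalling, was above the floor only in HD-het cells. The gene spans chr9:112065091-112235938 on the minus strand, with 21 exons in the 3952-nucleotide transcript used. Its reads numbered 1, 1 and 2 (control), 6, 8 and 5 (HD-het) and 3, 0 and 1 (HD-homo). The HD-het libraries lay above all others. Mean CPM of Arpp21 was 0.0428 ± 0.0215 for control, 0.188 ± 0.0497 for HD-het and 0.0406 ± 0.0469 for HD-homo cells. The summed counts of HD-het cells were 4.46 times those of control cells (95% counting interval 1.48 to 18) and 5.06 times those of HD-homo cells (1.68 to 20.5). The gene was left out by the filter, and the exact permutation test gave p = 0.10 for both comparisons. Without the filter, the log2FC in HD-het cells was 2.06 (adjusted p = 0.0311). The exons of 2900079G21Rik on the other strand, with 0 reads, cover 3.33% of the exon bases of Arpp21.

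**Figure D2:**
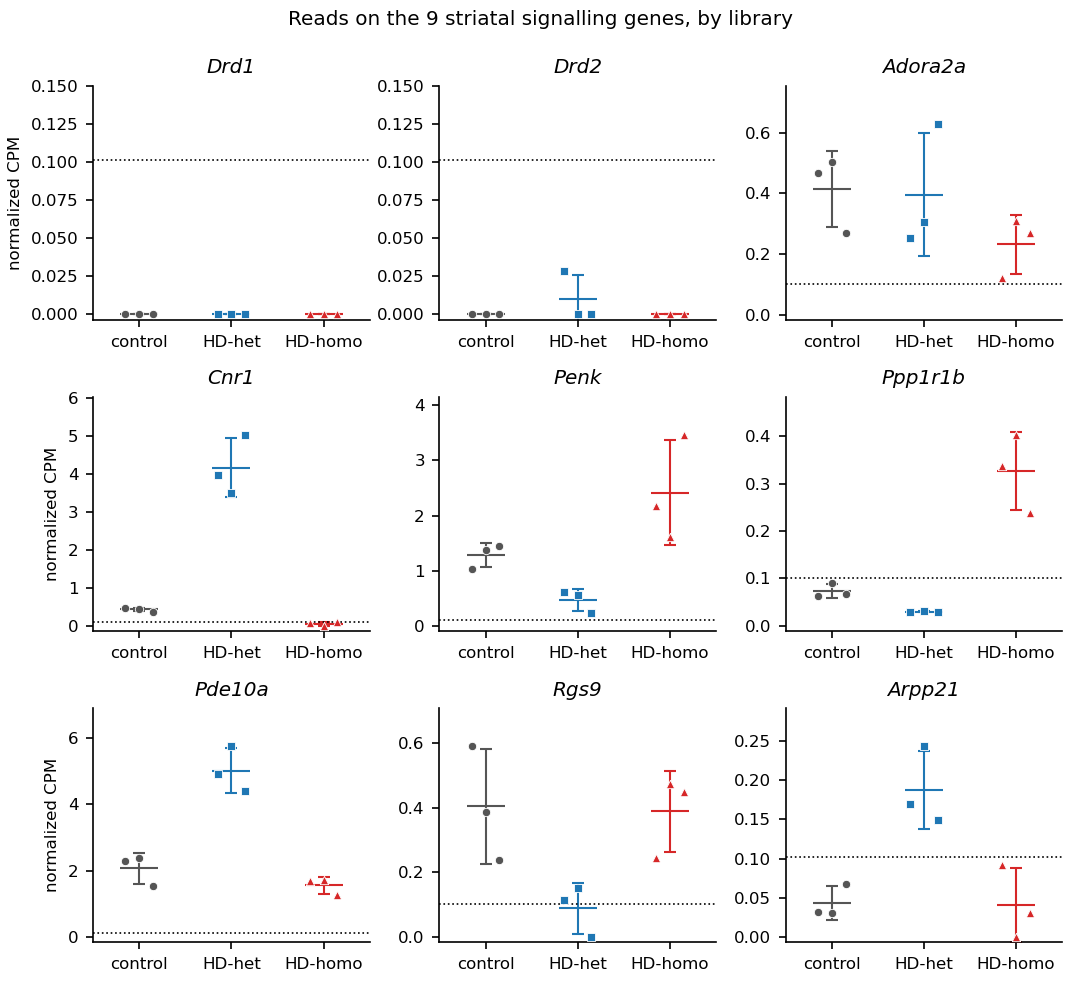
Normalized CPM (linear axis, with its own scale for each gene) of each of the 9 genes in the 9 libraries. Points are libraries, bars are mean ± SD of 3 libraries of a line and the dotted line marks the highest floor, 0.101 CPM. Cnr1 is highest in HD-het cells and lowest in HD-homo cells, Penk the reverse, and Drd1 has no reads in any library.

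Across the set, the genes moved in different directions. In HD-homo against control cells, 5 of the 9 genes passed the filter, and of these Penk rose, Cnr1 fell and 3 did not pass the test. In that comparison 58.6% of all tested genes passed, 29.6% higher and 28.9% lower. In HD-het against control cells, Pde10a and Cnr1 rose, Penk and Rgs9 fell and Adora2a did not pass the test. There 65.1% of all tested genes passed, 33.8% higher and 31.4% lower. Between HD-homo and HD-het cells, Penk and Rgs9 were higher and Pde10a and Cnr1 lower in HD-homo cells, and 71.6% of all tested genes passed, 36% higher and 35.6% lower. The shares of the set that passed are counts of 2, 4 and 4 of 5 genes and were read against these backgrounds, so that they are no result particular to the set. The median log2FC of the 5 genes was -0.41 for HD-homo and -0.08 for HD-het cells against control cells, beside 0.01 and 0.03 over all tested genes. The HD lines share the control libraries, so that their values against control cells are not independent.

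**Figure D3:**
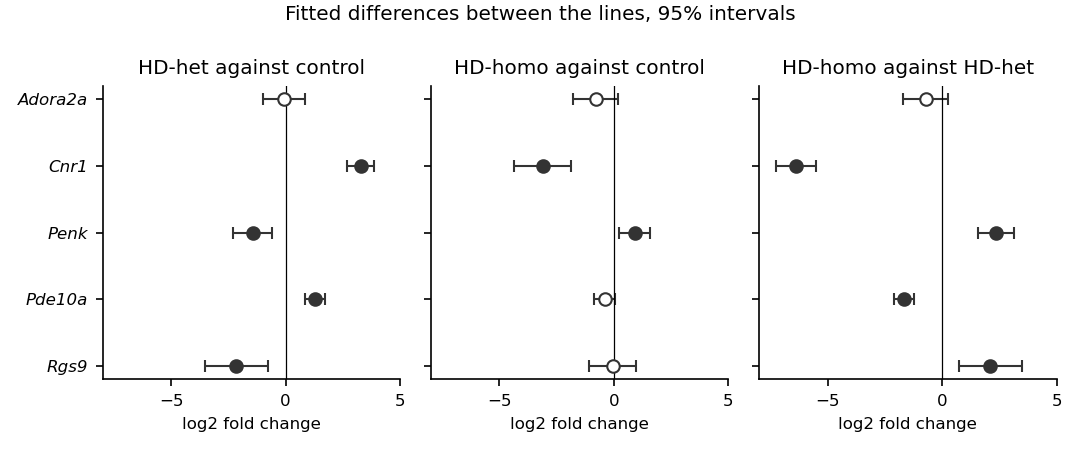
Log2 fold change (log2FC) of the 5 tested genes in each comparison from the edgeR fit; bars are 95% intervals, and filled points have an adjusted p under 0.05. Cnr1 has the largest changes, 3.27 in HD-het and -3.11 in HD-homo cells against control cells, and Adora2a passes in no comparison.

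Other genes of the same pathways also differed between the lines, as in the plot of calls by pathway. Of all tested genes, 65.1% passed the test in HD-het against control cells (33.8% higher, 31.4% lower). In HD-homo against control cells 58.6% passed (29.6% higher, 28.9% lower). The counts by list are given beside these shares and were not tested against them. Of 30 other genes of medium spiny neurons, 13 were tested and 7 were at or under the floor in all libraries, and of the tested genes 6 rose and 1 fell in HD-het cells, against 3 and 5 in HD-homo cells. Rgs4, which limits Gq and Gi signalling, had counts of 2, 0 and 2 in control cells, a mean of 0.632 CPM in HD-het and of 18.8 CPM in HD-homo cells. Pde1b, a calcium-dependent phosphodiesterase of the striatum, had a mean of 6.50 CPM in control, 15.1 in HD-het and 1.79 in HD-homo cells, and it rose in HD-het (log2FC 1.22, adjusted p = 7.5e-06) and fell in HD-homo cells (log2FC -1.85, adjusted p = 8.8e-07). Camk4, a calcium-dependent kinase, had 1.75, 8.57 and 0.629 CPM in the lines (control, HD-het, HD-homo). Of 11 other dopamine, adenosine and muscarinic receptors, only 3 were tested. The adenosine receptor Adora1 had 1.26, 2.85 and 0.345 CPM in that order of lines, and Adora2b had 5.72, 0.905 and 3.91 CPM.

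More of the genes of the general cAMP pathway passed the filter. The shares called over all tested genes are again 65.1% in HD-het and 58.6% in HD-homo cells. Of 24 genes for G proteins and adenylyl cyclases, 22 were tested, of which 15 rose and 4 fell in HD-het cells and 8 rose and 4 fell in HD-homo cells. The adenylyl cyclase Adcy3 had 2.95, 17.7 and 21.5 CPM in the lines (control, HD-het, HD-homo), and Adcy7 had 11.9, 4.56 and 34.0. The G protein subunit Gng2 had 6.32, 10.9 and 3.53 CPM and the cyclase Adcy6 had 131.6, 111.6 and 114.4 CPM. Of 18 other phosphodiesterases, 14 were tested, of which 9 rose and 0 fell in HD-het cells (DESeq2's Wald test also gave 9 and 0, and at an unadjusted p under 0.05 edgeR gave 10 and 0), and 3 rose and 4 fell in HD-homo cells. Their median log2FC was 1.35 in HD-het and -0.02 in HD-homo cells. Pde3b, which hydrolyses cAMP, had 48.2, 60.8 and 2.29 CPM in the lines (control, HD-het, HD-homo), with a log2FC of -4.38 in HD-homo cells (adjusted p = 1.7e-08). Pde5a, which hydrolyses cGMP, had 1.48, 4.85 and 13.1 CPM. Pde3a had 0.470, 1.52 and 4.82 CPM, the last from uneven HD-homo counts of 86, 98 and 319. Pde4b had 52.8, 48.5 and 14.1 CPM. Of 9 protein kinase A subunit genes, 8 were tested, with 2 higher and 3 lower in HD-het cells and 2 higher and 4 lower in HD-homo cells. The regulatory subunit Prkar2b fell from 172 CPM in control cells to 54.7 in HD-het and 72.8 in HD-homo cells. Prkar1b had 2.45, 9.51 and 0.623 CPM in the lines (control, HD-het, HD-homo), and Prkar1a and Prkar2a rose in HD-homo cells by log2FCs of 0.35 and 0.31. Of 16 genes for protein phosphatases 1 and 2A, calcineurin, their regulators and the kinase Cdk5, 15 were tested, with 7 higher and 6 lower in HD-het cells and 2 higher and 7 lower in HD-homo cells. Ppp1r9a, which anchors protein phosphatase 1 to actin, fell from 18.8 CPM in control to 3.98 in HD-het and 0.102 in HD-homo cells. Its relative Ppp1r9b fell in HD-homo cells, by 0.88 on the log2 scale, while Ppp3cb and Ppp2ca rose there by log2FCs of 0.21 and 0.17.

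Modulators of the G protein and peptide systems also differed between the lines, beside 65.1% of all tested genes called in HD-het and 58.6% in HD-homo cells. Of 20 RGS genes and partners of Rgs9, 12 were tested, with 4 higher and 4 lower in HD-het cells and 4 higher and 5 lower in HD-homo cells. Rgs16 had 237 CPM for control, 42.3 for HD-het and 3.78 for HD-homo cells. Rgs20 had 7.64, 1.49 and 0.0438 CPM in the same order, and Rgs10 had 4.67, 6.58 and 13.9 CPM. Of 16 opioid peptide, processing and receptor genes, 5 were tested, with 3 higher and 1 lower in HD-het cells and 4 higher and 1 lower in HD-homo cells. Mme, neprilysin, which cleaves enkephalins, had 1.28, 63.7 and 247 CPM in the lines (control, HD-het, HD-homo), and the delta opioid receptor Oprd1 had 0.210, 0.206 and 1.68 CPM. The aminopeptidase Npepps had 203, 152 and 164 CPM. Of 12 endocannabinoid genes, 9 were tested, with 5 higher and 3 lower in HD-het cells and 1 higher and 2 lower in HD-homo cells. Mgll, the lipase that breaks down the endocannabinoid 2-AG, had 5.42, 69.1 and 13.5 CPM in the lines (control, HD-het, HD-homo). Faah, which breaks down anandamide, had 1.63, 0.461 and 0.844 CPM, and the hydrolase Abhd6 had 14.3, 12.2 and 11.8 CPM. The Arpp21 relatives R3hdm1, R3hdm2 and R3hdm4 and the endosulfine family genes Arpp19 and Ensa made a list of 5 genes, all tested. Of these, 0 rose and 1 fell in HD-het cells (edgeR at an unadjusted p under 0.05 and DESeq2 gave the same counts). In HD-homo cells 3 rose and 1 fell, and Arpp19 and Ensa were among those that rose. The phosphatase 2A regulator Arpp19 and R3hdm4 rose in HD-homo cells by log2FCs of 0.42 and 0.35, and R3hdm1 fell there by 0.25. A list of 16 genes, all tested, held targets of cAMP and CREB, and also Creb1 and its coactivators Crtc1, Crtc2 and Crtc3. Of these genes 7 rose and 3 fell in HD-het cells and 7 rose and 2 fell in HD-homo cells. Of the coactivators, Crtc3 rose (log2FC 0.27) and Crtc1 and Crtc2 fell (both -0.23) in HD-het cells. In HD-homo cells Crtc1 rose by 0.28. The transcription factors Egr2 and Nr4a2 rose in HD-homo cells by log2FCs of 1.56 and 1.31, with uneven Nr4a2 counts of 170, 555 and 206. The kinase Sik1 and the factor Crem fell there by 0.74 and 0.45 on the log2 scale.

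**Figure D4:**
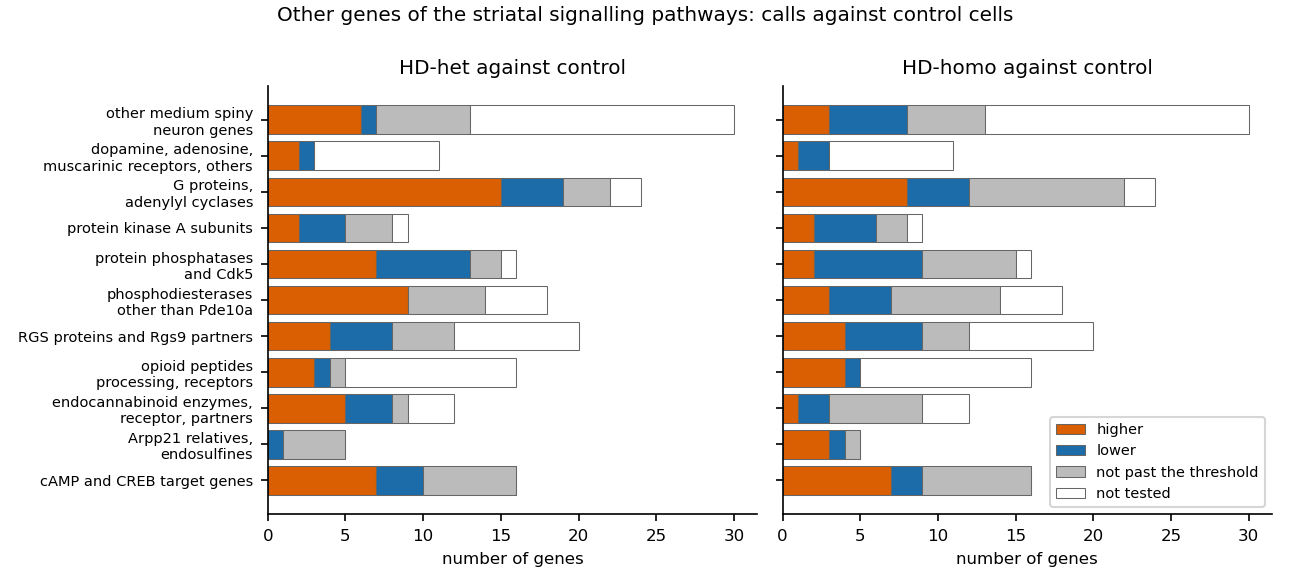
Number of genes in each pathway list that were higher, lower, not past the threshold or not tested in HD-het and HD-homo cells against control cells (stacked bars, adjusted p under 0.05). Of the 14 phosphodiesterases tested besides Pde10a, 9 were higher and 0 lower in HD-het cells. Over all tested genes, 33.8% were higher and 31.4% lower in HD-het cells. The protein kinase A list includes inhibitor genes, and the list of cAMP and CREB targets includes CREB itself and its coactivators.

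The genes whose pattern over the 9 libraries was closest to Pde10a, Cnr1, Penk and Adora2a were sought among all tested genes with a mean of at least 1 CPM, by the root mean square difference of log2 levels centred on each gene's own mean. For Pde10a this was Arhgap44, with a difference of 0.154, and for Cnr1 it was Lrrc15, with 0.305 and means of 4.62, 29.9 and 0.667 CPM in the lines (control, HD-het, HD-homo). For Penk it was Klk8 (0.247) and for Adora2a it was Nr1d2 (0.250). These pairs describe likeness over 9 libraries of 3 lines only.

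Summed marker levels of other cell types also moved between the lines, and their part in these results was not tested. The 7 neural progenitor markers summed to between 666 and 708 CPM in control, between 966 and 1005 in HD-het and between 32.5 and 45.4 in HD-homo cells. Nes carried most of that sum, and of the 5 tested progenitor markers 4 rose and 1 fell in HD-het cells and 1 rose and 4 fell in HD-homo cells. The 7 microglia markers, of which Aif1 had 0 reads, summed to between 12.4 and 16.1, between 42.9 and 53.0 and between 13.3 and 14.6 CPM in the same order. Tmem119 alone had means of 13.1, 45.9 and 11.5 CPM of these, while Csf1r was highest in HD-homo cells, at 2.04 CPM. P2ry12 fell in both HD lines, from 0.438 CPM in control to 0.138 in HD-het and 0.0418 in HD-homo cells. DESeq2's Wald test called 0 microglia markers lower in HD-het and 1 lower in HD-homo cells. Of the 8 tested fibroblast and mural cell markers, 5 rose and 2 fell in each HD line against control cells. These were only partly the same genes. Acta2 and Tagln rose in HD-het cells (log2FCs of 1.22 and 2.72) and fell in HD-homo cells (-4.63 and -3.67). Col1a2 and Dcn instead fell in HD-het cells (-4.54 and -1.30) and rose in HD-homo cells (4.35 and 2.40). Col1a1 and Pdgfrb rose in both, Col3a1 only in HD-het cells and Pdgfra only in HD-homo cells. Over all tested genes, 65.1% passed in HD-het and 58.6% in HD-homo cells.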

How the data were processed

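RNA-seq was compared over 3 libraries of each line. Per the labels, total RNA was poly(A)-selected and made into directional libraries. The submitters' processing notes name cutadapt, Bowtie 1.1.2, RSEM 1.3.0, DESeq2, GRCm38.p5 and mm10 without saying which step each served, and how strand and annotation were handled in counting is not given in the sources used here. The values the authors deposited are whole-number counts per gene symbol, which may be rounded RSEM estimates, without normalization. Of the symbols, 26 are dates and 2 repeat a name, none of them among the 9 genes.

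The counts went into edgeR 4.0.16 under R 4.3.3 (filterByExpr, minimum count 10, TMM factors 0.984 to 1.03), which kept 13508 genes, and a quasi-likelihood model of the 3 lines used all 9 libraries. P-values were adjusted by Benjamini-Hochberg over all tested genes, with 0.05 as the threshold. Genes of the set that the filter left out were compared by a two-sided exact permutation test. Intervals of ratios are 95% exact counting intervals and cover counting error only. RPKM used the length of 1 GENCODE transcript per gene, which 97.1% of the tested genes had. On simulated data for HD-homo against control cells (13308 genes), 185 of 199 changed genes were recovered and 7.5% of calls were false. In the simulated HD-het cells, where nothing was changed, 0 genes were called. Only those 199 genes were changed, whereas 58.6% of tested genes were called in the real comparison. The simulation gives no rates for a change that wide, or for genes with counts as low as the set.

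Named genes are the 9 genes, up to 2 increases and 2 decreases of each list in HD-homo cells with at least 1 CPM and no overlap, and 1 most similar gene for each tested gene, which for Rgs9 is not reported here. The 9 genes and the lists were chosen with earlier results of these data known. Alternatives were DESeq2's size factors and Wald test (DESeq2 1.42.0), library totals, no filter, 10 counts in every library, 2 lines only, a replicate block, each library left out, thinning, a prior count of 2, union exon lengths for RPKM and, for counts of genes, a log2FC of at least 1. Leaving out control and HD-het replicate 3 together was chosen after seeing the data. Ribosome-protected fragments were not analysed here.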

Additional observations from a re-analysis of the deposited data

Results flagged for a closer look

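Penk and Cnr1 moved in opposite directions in the HD lines, and each difference was tested by comparing HD-homo with HD-het cells directly. Penk was lower in HD-het and higher in HD-homo cells than in control cells, and the difference between the HD lines was a log2FC of 2.34 (SE 0.359, adjusted p = 0.000122 from edgeR, higher in 3 of 3 HD-homo libraries). Cnr1 was higher in HD-het and lower in HD-homo cells, with a difference of -6.38 (SE 0.393, adjusted p = 7.5e-08, lower in 3 of 3 HD-homo libraries). Of all tested genes 71.6% differed between these lines, and the causes were not tested.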

How the results depend on the processing

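Of 271 tests of the 5 tested genes under 19 alternatives, 257 kept their direction and their side of the threshold. Another 6 changed sign, all far from the threshold and each without 1 library: over the libraries left out in turn, Rgs9 in HD-homo against control cells ranged from -0.30 to 0.32 and Adora2a in HD-het against control cells from -0.58 to 0.16, with -0.80 without control and HD-het replicate 3 together. With at least 10 counts in every library, only Pde10a of the set could be tested, and the genes past the threshold numbered 0 of 2 in HD-homo against control cells (0 also at an unadjusted p under 0.05), 1 of 4 in HD-het against control cells and 1 of 4 between the HD lines, since fewer genes were tested. In HD-homo against control cells the count was 2, ranged from 2 to 4 without each library in turn, was 5 without control and HD-het replicate 3 together, and was 1 with a log2FC of at least 1. The 4 without control replicate 3 were Cnr1, Penk, Pde10a and Ppp1r1b. Without control and HD-het replicate 3, Adora2a in HD-homo cells was at -1.02 (adjusted p = 0.0485) and Penk in HD-het cells at -1.03 (adjusted p = 0.0685). The cause of these changes was not tested.

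Deviations of same-numbered libraries were weakly correlated (r from -0.00532 to 0.145). Each of the 6 libraries correlated best with its own number in HD-homo against control cells and in HD-het against control cells. Between the HD lines, 4 of 6 did. The libraries may thus be partly paired by number, which the main model does not take into account. A replicate block raised the calls over all tested genes from 7910 to 8372, from 8797 to 9160 and from 9666 to 9938 in these comparisons. With a replicate block, 3, 4 and 4 genes of the set passed in HD-homo against control, HD-het against control and HD-homo against HD-het cells. The call added by it was Pde10a in HD-homo cells, at -0.41 (adjusted p = 0.0403). Depth limits all genes of the set: at most 189 reads of any of them were counted in a library, and Drd1 and Drd2 lay at or under the floor.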

Other observations

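Partners of CB1 were examined after the values of the endocannabinoid and G protein lists had been seen. Cnrip1, a protein that binds the tail of CB1, had 6, 4 and 7 (control), 156, 145 and 130 (HD-het) and 10, 8 and 8 (HD-homo) reads. The HD-het libraries stood far above the others. Its log2FC was 4.54 in HD-het cells (adjusted p = 4.7e-08) and 0.42 in HD-homo cells (adjusted p = 0.411). Of the inhibitory G protein subunits to which CB1 couples, Gnai1 had means of 2.90, 44.8 and 2.91 CPM in the lines (control, HD-het, HD-homo), with a log2FC of 3.94 in HD-het cells (adjusted p = 1.1e-08). In the same comparison Gnao1 rose by a log2FC of 1.87 (adjusted p = 1.9e-07), Gnai2 rose by 0.37 (adjusted p = 0.000179), Gnai3 fell by 0.16 (adjusted p = 0.0324) and Gnaz, at 0.55, did not pass (adjusted p = 0.0704). Of all tested genes, 65.1% passed the test in this comparison. Ptpn5, the striatum-enriched phosphatase STEP, which did not pass the filter, had counts of 3, 11 and 11 (control), 0, 1 and 0 (HD-het) and 6, 6 and 9 (HD-homo). It is not a CB1 partner and was picked outside the rule for named genes, and its difference was not tested. Of the 13 tested genes among the other medium spiny neuron genes, 6 rose and 1 fell in HD-het cells.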
